A study of Rattus norvegicus with 40 samples.

Results

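Hepatic mRNA levels of Han/Wistar (Kuopio) rats (H/W) were compared between 19 h and 3 h after a dose of the dioxin TCDD, a persistent environmental contaminant. The comparison takes 8 of the 40 arrays of the series: 4 H/W rats at 19 h and 4 other H/W rats at 3 h, all given 1 dose of TCDD at 100 ug/kg by gavage. All were adult males, 10 to 12 weeks old, and each liver was hybridised to its own RAE230A array. H/W rats, which resist the lethal action of TCDD, carry an aryl hydrocarbon receptor (AHR) from which part of the transactivation domain is deleted. H/W rats given corn oil and taken at 19 h (n = 4) are shown beside the TCDD groups. A 3 h corn oil group was not analysed here, so a difference between 19 h and 3 h holds the passage of time after dosing as well as the action of TCDD. Long-Evans (Turku/AB) rats (L-E), which carry the wildtype AHR, were treated in the same way (n = 4 at 19 h and n = 4 at 3 h) and serve as a second strain. Per the treatment protocol in the labels, livers were taken in the same morning hours at both times, so the hour of dosing also differed. Rats of a treatment group shared a cage. The 4 arrays of 19 h were scanned on 3 days and the 4 arrays of 3 h together on 1 other day. In these 8 arrays time after dosing goes with the hour of dosing, the cage and the scan day, and these 4 cannot be told apart.

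The AHR is a ligand-activated transcription factor that waits in the cytoplasm in a complex with the chaperone HSP90. When dioxin binds, it moves to the nucleus, pairs with ARNT and binds DNA at AHR response elements, short sites built around the bases GCGTG. In liver its best known targets are the cytochrome P450 enzymes of family 1 and other enzymes that metabolise foreign compounds. The liver also sets blood glucose and lipids and disposes of nitrogen, and many of its metabolic mRNAs follow feeding, hormones and the hour of the day.

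Of 10411 genes tested with limma, 539 (5.18%) differed between 19 h and 3 h at an adjusted p under 0.01. Of these, 339 (3.26% of the genes tested) were higher at 19 h and 200 (1.92%) were lower. The arrays of the 2 times did not overlap for 1846 genes (17.7%). Among the 539 genes, 157 differed by more than 1 on the log2 scale, 83 of them upwards and 74 downwards. All values below are log2 signals from GCRMA, which corrects background by probe sequence and sets all arrays to the same distribution, so changes are relative to the rest of the mRNA. A difference of 1 is a doubling. The median difference of all genes was -0.03, with 3420 positive and 6991 negative differences. In bulk tissue, fewer cells of a type and less RNA per cell cannot be told apart. The median signal of an array lay between 3.54 and 3.65, and 17 of the 539 genes had a group mean under the lowest of these medians, where the size of a difference depends on the low end of the scale. Arrays of the same group correlated with each other with mean coefficients of 0.995 to 0.996. With scan day as a random block, 269 genes passed the threshold, all of them among the 539. Leaving out 1 array left 326 genes without 3 h replicate 4, 334 without 19 h replicate 1, 341 without 3 h replicate 1, 343 without 3 h replicate 3, 345 without 19 h replicate 4 and 378 to 388 without 1 of the other 3 arrays, and 241 of the 539 passed whichever array was left out.

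Sequences upstream of the transcription start are printed for 6 genes whose values carry the results below. The first 3 are AHR targets with unlike differences between 19 h and 3 h, and the other 3 are genes of cholesterol synthesis that rose together. Each is the 250 bases before the start site from RefSeq, build GRCr8, written 5' to 3' on the strand of the gene. Capitals in the first 3 mark the AHR core GCGTG on either strand, so CACGC is the same core read from the other strand. The sequences lie at chr6:21094315-21094564 (plus strand) for Cyp1b1, chr2:152063519-152063768 (plus strand) for Tiparp and chr19:52220268-52220517 (minus strand) for Nqo1.
Cyp1b1: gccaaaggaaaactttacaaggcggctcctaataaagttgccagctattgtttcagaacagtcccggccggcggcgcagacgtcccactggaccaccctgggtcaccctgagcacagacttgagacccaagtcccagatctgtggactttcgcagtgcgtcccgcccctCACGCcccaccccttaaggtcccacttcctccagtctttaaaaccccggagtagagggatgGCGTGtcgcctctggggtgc
Tiparp: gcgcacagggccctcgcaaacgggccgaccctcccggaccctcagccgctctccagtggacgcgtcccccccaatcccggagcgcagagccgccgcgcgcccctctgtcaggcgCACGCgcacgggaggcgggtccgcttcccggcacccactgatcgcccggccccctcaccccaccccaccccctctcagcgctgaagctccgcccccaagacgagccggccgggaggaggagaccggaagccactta
Nqo1: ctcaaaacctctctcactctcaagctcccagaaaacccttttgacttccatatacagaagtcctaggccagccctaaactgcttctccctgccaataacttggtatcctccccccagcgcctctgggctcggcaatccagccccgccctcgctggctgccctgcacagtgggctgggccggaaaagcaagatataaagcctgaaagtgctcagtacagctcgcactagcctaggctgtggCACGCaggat
The core occurs 2 times upstream of Cyp1b1 and 1 time upstream of Tiparp and of Nqo1. Of AHR-inducible genes not printed, Exoc3 holds it 1 time and Cyp1a2 0 times. The core is common: 25.9% of 33469 RefSeq promoters of this length hold it, as do 5 of the 11 AHR-inducible genes below. So do 9 of the 16 cholesterol genes with a promoter sequence, 18 of 31 proteasome genes and 13 of 38 amino acid genes. Capitals in the next 3 sequences mark the CCAAT box, or ATTGG where it is read from the other strand. They lie at chr17:66547525-66547774 (minus strand) for Idi1, chr2:176804817-176805066 (minus strand) for Fdps and chr16:29746863-29747112 (plus strand) for Msmo1.
Idi1: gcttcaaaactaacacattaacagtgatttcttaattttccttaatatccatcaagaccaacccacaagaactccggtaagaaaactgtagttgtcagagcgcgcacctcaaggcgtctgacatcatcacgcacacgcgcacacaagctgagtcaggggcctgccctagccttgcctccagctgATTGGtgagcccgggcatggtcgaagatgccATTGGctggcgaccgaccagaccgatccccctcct
Fdps: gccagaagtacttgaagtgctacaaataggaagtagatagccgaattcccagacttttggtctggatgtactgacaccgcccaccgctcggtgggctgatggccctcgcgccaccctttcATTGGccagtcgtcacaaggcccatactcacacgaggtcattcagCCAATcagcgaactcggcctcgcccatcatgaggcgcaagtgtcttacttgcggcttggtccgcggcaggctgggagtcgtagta
Msmo1: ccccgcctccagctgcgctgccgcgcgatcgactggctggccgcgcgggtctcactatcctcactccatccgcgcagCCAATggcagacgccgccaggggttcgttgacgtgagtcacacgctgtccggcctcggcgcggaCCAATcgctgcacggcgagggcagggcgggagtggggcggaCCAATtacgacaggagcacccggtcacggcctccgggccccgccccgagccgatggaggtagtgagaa
A CCAAT box was found upstream of 13 of the 16 cholesterol genes and 15 of 31 proteasome genes. It was found upstream of 21 of 38 amino acid genes, 5 of 11 AHR-inducible genes and 34.0% of the 33469 promoters. The sterol response element TCACNCCAC was found upstream of none of the 16 and of 0.974% of the promoters. A match shows that these letters are present, and binding was not measured. An AHR core and a CCAAT box can share at most an end base.

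Among AHR-inducible genes, the largest difference was that of Cyp1b1, an enzyme that oxidises steroids and polycyclic compounds. Its signal was 11.58, 11.08, 12.38 and 11.80 in the 19 h rats and 3.73, 4.67, 4.55 and 4.28 in the 3 h rats, against 3.54, 3.84, 4.15 and 3.82 in corn oil rats. The 19 h and 3 h rats were far apart, and the ranges of the 3 h and corn oil rats overlapped. The difference of 19 h minus 3 h was 7.40 ± 0.31 (SE), 169-fold (adjusted p = 6.1e-05). Since the 3 h rats were close to the array medians, this ratio depends on the low end of the scale. Aldh3a1, an aldehyde dehydrogenase and classical AHR target, had signals of 13.17, 13.76, 13.40 and 13.39 at 19 h and of 11.43, 10.61, 10.06 and 11.31 at 3 h, with 3.42, 3.20, 4.47 and 3.29 in corn oil rats. It was thus already high at 3 h, with every 3 h rat above every corn oil rat, and rose by a further 2.58 ± 0.31 (5.98-fold, adjusted p = 0.0025).

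Cyp1a1 and Cyp1a2, the P450 enzymes by which AHR activation is usually recognised, were near the top of the scale at both times and rose by small steps. Cyp1a1 had signals of 14.45, 14.63, 14.54 and 14.50 at 19 h and of 13.91, 13.95, 14.01 and 14.11 at 3 h, which gives a difference of 0.54 ± 0.05 (1.45-fold, adjusted p = 0.0013). In corn oil rats Cyp1a1 was 2.38, 2.39 and 2.89 in 3 animals and 8.60 in replicate 3. Cyp1a2 had signals of 15.33, 15.32, 15.36 and 15.35 at 19 h, 14.74, 14.67, 14.75 and 14.83 at 3 h, and 13.94 to 14.29 in corn oil rats (difference 0.59 ± 0.03, adjusted p = 0.00019). For both genes the 19 h and 3 h groups did not overlap. At 19 h, 7 of the 10411 genes had a higher mean signal than Cyp1a2 and 24 a higher one than Cyp1a1, so the size of their differences should not be set against those of dimmer genes. Whether such signals were compressed was not tested.

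Exoc3, a subunit of the exocyst that tethers secretory vesicles, and Selenbp1, a selenium-binding protein, had intermediate differences. Exoc3 was 9.11, 8.85, 9.17 and 8.94 at 19 h and 7.97, 7.90, 7.88 and 7.81 at 3 h, a rise of 1.12 ± 0.08 (adjusted p = 0.00032), with 5.97 to 7.02 in corn oil rats. Selenbp1 was 12.97, 12.71, 13.58 and 13.46 at 19 h and 12.06, 11.85, 11.90 and 12.13 at 3 h, a rise of 1.19 ± 0.20 (adjusted p = 0.0087). The 19 h rats of both genes lay above all 3 h rats. Nqo1, a quinone reductase, was 11.14, 11.12, 11.61 and 11.92 at 19 h, 10.21, 10.34, 10.34 and 10.98 at 3 h and 3.66 to 6.83 in corn oil rats. Its difference between times, 0.98 ± 0.24, did not pass the threshold (adjusted p = 0.040), although the groups did not overlap.

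Tiparp, a poly(ADP-ribose) polymerase that acts back on the AHR, did not differ at the threshold. It had signals of 11.08, 10.57, 9.56 and 10.54 at 19 h and of 11.06, 10.48, 11.26 and 10.25 at 3 h, while all 4 corn oil rats lay between 5.68 and 6.85. The difference of 19 h minus 3 h was -0.32 ± 0.36 (adjusted p = 0.52), and the 2 TCDD groups overlapped. Nfe2l2, which encodes the antioxidant regulator NRF2, was 11.43 ± 0.40 at 19 h and 11.93 ± 0.18 at 3 h, with 9.97 ± 0.20 in corn oil rats (SD, n = 4 each). The kinase gene Pkdcc was 10.92 ± 0.24, 10.53 ± 0.20 and 8.42 ± 0.47 in the same order. Neither differed between the times at the threshold (adjusted p = 0.18 and 0.15).

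In all, 6 of the 14 measured AHR-inducible genes rose and none fell, against 3.26% and 1.92% of all genes, and their median difference was 0.46 against -0.03. The list includes genes that the study named from the 19 h arrays, so its direction is not independent evidence. The other 4 members, Xdh, Fgf21, Lman2l and Htatip2, differed by -0.68 to 0.27 with no call. At 19 h, 7 of the 14 were higher in TCDD rats than in corn oil rats, where 34 of all genes were higher and 45 (0.432%) were called in either direction. The 45 became 16 to 20 without 19 h replicate 1, 2 or 4 or corn oil replicate 1 and 26 without 19 h replicate 3. Cyp1a1 was not among the 7 (limma, adjusted p = 0.014, with corn oil replicate 3 at 8.60). The comparison with 3 h and that with corn oil share the 19 h TCDD arrays. With scan day as a block 5 of the 6 calls were kept (not Selenbp1, adjusted p = 0.029). Selenbp1 passed only when 19 h replicate 2 was left out (adjusted p up to 0.027), and Aldh3a1 did not pass without 19 h replicate 4 (adjusted p = 0.010). Of the 12 measured genes of the AHR complex and its partners, Hsp90ab1 and the retinoblastoma gene Rb1 rose, the second at means under every array median (3.4 at 19 h and 2.7 at 3 h). The 2 were 16.7% of that list, against 3.26% of all genes.

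**Figure D1:**
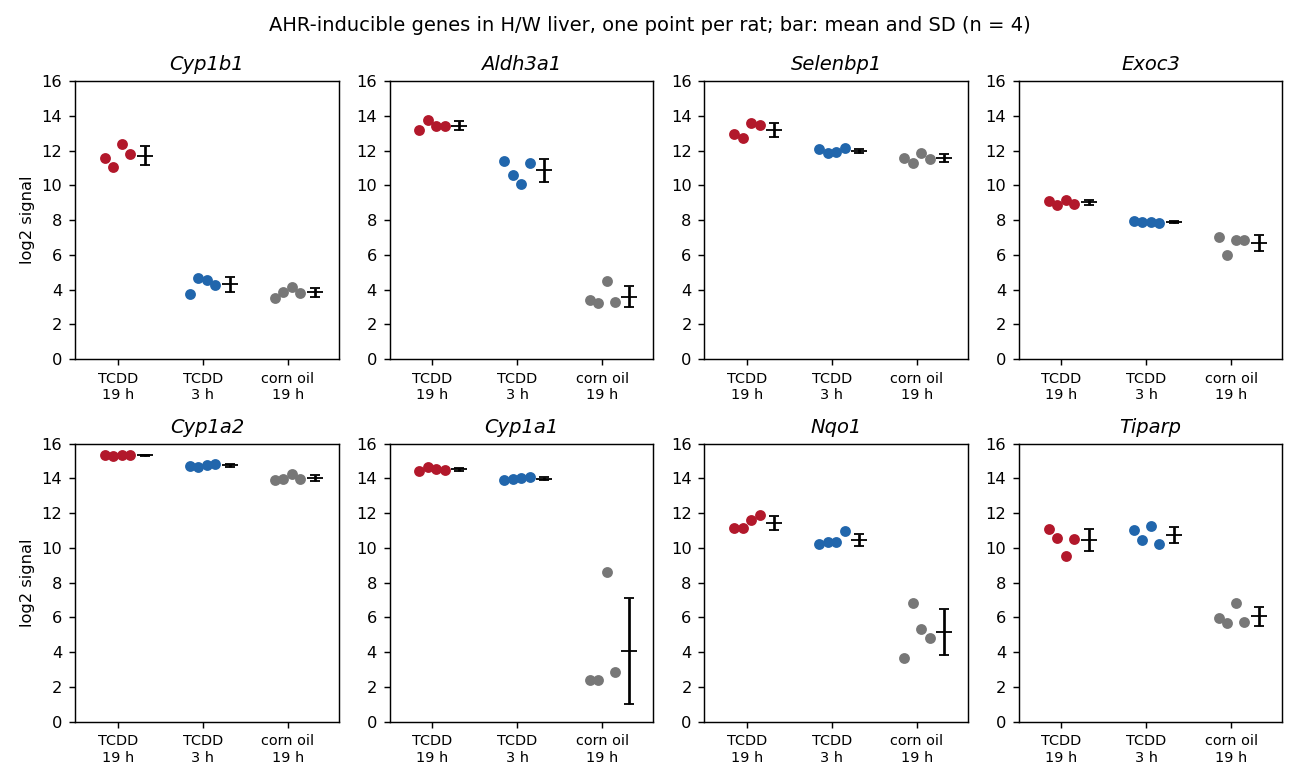
Log2 signal of 8 AHR-inducible genes in H/W rats at 19 h and 3 h after TCDD and at 19 h after corn oil, 1 point per rat, with the mean and SD of 4 rats beside the points. Cyp1b1 at 3 h lies at 3.73 to 4.67, beside the corn oil rats, while Cyp1a1, Aldh3a1, Nqo1 and Tiparp at 3 h lie above all corn oil rats.

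Genes of cholesterol synthesis were higher at 19 h than at 3 h. Of the 19 measured members of the pathway and its regulators, 8 rose (42.1%, against 3.26% of all genes) and none fell. All 19 differences were positive, against 3420 of all 10411 genes, and their median was 1.23 against -0.03 for all genes. Msmo1, which removes a methyl group from sterol precursors, was 10.42, 11.09, 10.84 and 11.17 at 19 h and 7.57, 8.94, 7.98 and 9.11 at 3 h. Idi1, which isomerises the building block of isoprenoids, was 9.99, 10.21, 10.08 and 10.27 at 19 h and 7.44, 8.32, 7.67 and 8.86 at 3 h. In both genes the 3 h rats were lower and more scattered, with replicates 2 and 4 above replicates 1 and 3. The differences were 2.48 ± 0.37 for Msmo1 (5.58-fold, adjusted p = 0.0059) and 2.07 ± 0.30 for Idi1 (4.19-fold, adjusted p = 0.0052).

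Srebf2, the transcription factor that drives this pathway, was 7.81, 7.51, 8.24 and 8.08 at 19 h and 6.53, 6.28, 6.46 and 6.11 at 3 h, a rise of 1.56 ± 0.17 (adjusted p = 0.0017). Lanosterol synthase (Lss), mevalonate kinase (Mvk) and farnesyl diphosphate synthase (Fdps) rose by 1.72 ± 0.29, 1.48 ± 0.23 and 1.44 ± 0.22. At 19 h these genes were near the corn oil rats: Fdps was 12.09 ± 0.25 in 19 h rats, 10.64 ± 0.40 in 3 h rats and 12.18 ± 0.15 in corn oil rats, and Idi1 was 10.14 ± 0.13, 8.07 ± 0.64 and 10.41 ± 0.64 (SD, n = 4 each). No member of the list passed the threshold between TCDD and corn oil at 19 h. The calls were sensitive to single arrays. The list held 1 to 6 calls with 1 array left out. It was 1 without 19 h replicate 3, 3 h replicate 1 or 3 h replicate 3, 2 without 19 h replicate 2 or 4, 3 without 19 h replicate 1 and 6 without 3 h replicate 2 or 4. Srebf2 passed in every one of these fits, whereas Msmo1, Idi1, Lss, Mvk and Fdps reached an adjusted p of 0.019 to 0.027. With scan day as a block the list held 1 call, Srebf2.

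Mid1ip1, Alas1 and Me1, genes of fat and heme synthesis, were among the largest rises. Mid1ip1, which promotes the polymerisation of acetyl-CoA carboxylase, was 9.74, 9.82, 8.63 and 8.73 at 19 h, 6.01, 6.58, 5.13 and 5.35 at 3 h, and 9.83 to 10.55 in corn oil rats. The 3 h rats lay below both other groups (3.46 ± 0.42, 11.0-fold, adjusted p = 0.0025, and 0.010 without 3 h replicate 4). Alas1, which catalyses the rate-limiting step of heme synthesis, was 11.18, 11.36, 10.95 and 10.51 at 19 h and 8.30, 7.56, 7.48 and 7.92 at 3 h, with 10.45 to 11.03 in corn oil rats. It rose by 3.19 ± 0.24 (9.10-fold, adjusted p = 0.00046). Malic enzyme (Me1), which supplies NADPH, was 8.57, 8.74, 8.67 and 8.69 at 19 h and 5.03, 6.25, 5.79 and 5.84 at 3 h (2.94 ± 0.23, 7.68-fold, adjusted p = 0.00059), and here the corn oil rats, at 6.23 to 7.56, reached down to the highest 3 h rat.

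Of 28 lipogenic genes measured, 5 rose (17.9%, against 3.26% of all genes) and 1 fell (3.57%, against 1.92%), with a median of 0.37. Differences were negative for 9 of the 28, against 6991 of all 10411 genes. Core enzymes of the pathway were not among the rises: acetyl-CoA carboxylase (Acaca) differed by -1.02 and stearoyl-CoA desaturase (Scd) by -2.65, both just short of the threshold (adjusted p = 0.011 and 0.012), and fatty acid synthase (Fasn) by -0.06 (adjusted p = 0.84). Besides Me1 the rises were Srebf1, the transcription factor of fatty acid synthesis (10.30 ± 0.24 at 19 h and 8.73 ± 0.41 at 3 h), the elongase Elovl5 (13.06 ± 0.10 and 12.40 ± 0.03), the oxysterol receptor Nr1h3 (11.11 ± 0.03 and 10.48 ± 0.09) and the citrate carrier Slc25a1 (10.93 ± 0.14 and 10.32 ± 0.05). Lpin1, a phosphatidate phosphatase and coregulator, was the one that fell (7.54 ± 0.32 and 9.94 ± 0.56). Srebf1 passed only without 3 h replicate 1 or 4 (adjusted p up to 0.016), and Lpin1 did not pass without 3 h replicate 4 (adjusted p = 0.011). In the heme and iron list 3 of 14 rose (21.4%, against 3.26% of all genes). They were Alas1, the transferrin receptor Tfrc (9.86 ± 0.27 at 19 h and 8.49 ± 0.27 at 3 h) and Ppox. Tfrc did not pass without 19 h replicate 1 or 4 or 3 h replicate 1 (adjusted p up to 0.012).

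The other genes among the 15 largest rises belonged to several functions. Vat1, a membrane protein of vesicles, was 10.43 ± 0.18 at 19 h and 7.93 ± 0.32 at 3 h. Atf5, a stress-responsive transcription factor, was 12.95, 13.23, 12.89 and 12.98 at 19 h and 10.41, 10.72, 10.71 and 10.33 at 3 h, with corn oil rats between at 10.80 to 12.38 (2.47 ± 0.11, 5.54-fold, adjusted p = 7.0e-05). Its spread within each group was a small part of the difference. Axin2, a feedback inhibitor and target of Wnt signalling, was 7.07 ± 0.53 at 19 h and 4.76 ± 0.21 at 3 h. The tubulin gene Tuba4a (2.02 ± 0.17), the nuclear receptor Ppard (2.04 ± 0.20), the hepatocyte transcription factor Cebpa (2.01 ± 0.33), the RNA-binding protein genes Scaf1 (2.28 ± 0.17) and Khsrp (1.99 ± 0.21) completed the group. The Khsrp rise rests on 1 probe set, since its others, at dimmer mean signals of 3.95 and 4.17, differed by -0.07 and -0.04. The calls of Ppard, Srebf2, Eci1, Dock9, Ddc and Cdkn1b also rest on 1 probe set. Their other probe set had a mean signal of 1.73 to 3.15, under every array median, and differed by -0.04 to 0.13. For Ppard, Tuba4a and Cebpa the means at 19 h (5.97, 10.12 and 8.92) were near those of corn oil rats (5.78, 10.03 and 8.82), with the 3 h rats at 3.93, 8.10 and 6.91. The Cebpa call held only without 3 h replicate 3 or 4 (adjusted p up to 0.028). Scaf1 at 3 h lay under the array median (3.07).

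**Figure D2:**
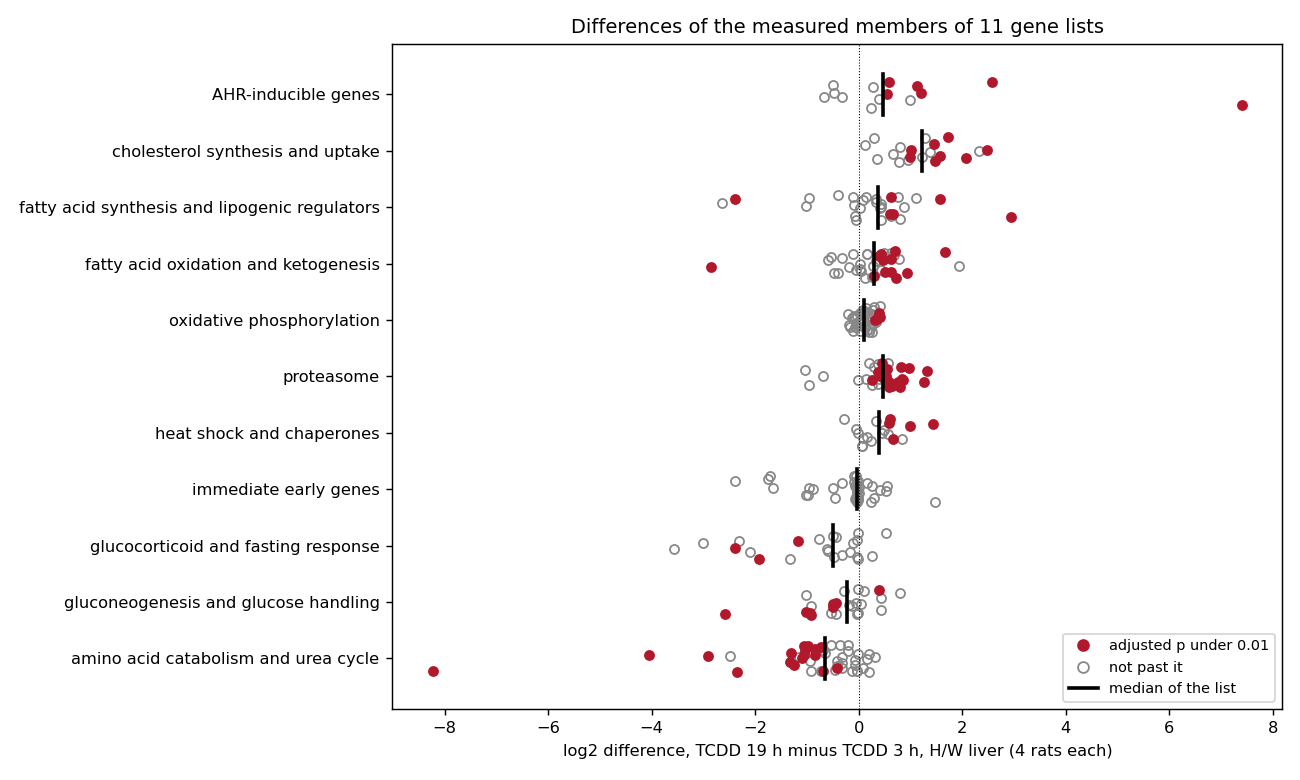
Log2 difference of 19 h minus 3 h after TCDD in H/W liver for each measured member of 11 gene lists, with filled points at an adjusted p under 0.01 and a bar at the median of the list. Cholesterol genes lie wholly to the right of 0 (median 1.23) and most amino acid genes to the left (median -0.65).

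Subunits of the proteasome, the complex that degrades ubiquitinated proteins, rose together in small steps. Of 33 measured, 19 rose (57.6%, against 3.26% of all genes) and none fell, and the median difference was 0.47. The regulatory subunit Psmd1 was 9.04, 9.03, 9.12 and 9.16 at 19 h and 7.64, 7.61, 8.03 and 7.80 at 3 h (1.31 ± 0.09, 2.49-fold, adjusted p = 0.00038). The regulatory subunit Psmd3 was 8.46, 8.64, 8.52 and 8.34 at 19 h and 7.14, 7.09, 7.35 and 7.32 at 3 h (1.27 ± 0.08, adjusted p = 0.00028). Groups were clearly apart in both. Psma4 of the outer ring of the core rose by 0.98 ± 0.10, the catalytic subunit Psmb5 by 0.81 ± 0.07, Psmb3 of the inner ring by 0.84 ± 0.12 and the regulatory subunit Psmd13 by 0.85 ± 0.14. The immunoproteasome subunits, which replace catalytic subunits under interferon, had other values: Psmb9 was 8.09 ± 0.37 at 19 h and 9.05 ± 0.38 at 3 h (adjusted p = 0.045), and Psmb8 differed by -1.04 (adjusted p = 0.066). In corn oil rats Psmd1 and Psmb5 were 8.75 ± 0.46 and 10.12 ± 0.16, means between those of the 2 TCDD groups. The list held 12 rises with scan day as a block and 12 to 16 with 1 array left out (12 without 19 h replicate 3). Psmd13 passed only without 3 h replicate 2, and Psmb3 only without 19 h replicate 2 or 4 (adjusted p up to 0.030 and 0.017).

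Chaperones of the HSP90 and mitochondrial systems rose as well, with 5 of 18 heat shock genes higher and none lower (median 0.40). The 5 were 27.8% of the list, against 3.26% of all genes. Fkbp4, a cochaperone of steroid receptors, was 11.36, 11.64, 11.15 and 11.07 at 19 h and 9.97, 9.81, 9.82 and 9.92 at 3 h (1.43 ± 0.12, 2.69-fold, adjusted p = 0.00080). Hsp90ab1, which holds the unliganded AHR, was 13.26, 13.52, 13.22 and 13.11 at 19 h and 12.42, 12.29, 12.21 and 12.22 at 3 h (0.99 ± 0.09, adjusted p = 0.00093). No 3 h rat reached the 19 h rats in these genes. The mitochondrial chaperonins Hspd1 and Hspe1 rose by 0.60 ± 0.06 and 0.67 ± 0.11, and Ahsa1, which activates HSP90, by 0.59 ± 0.08. Hspe1 lost its call with any 1 array left out (adjusted p up to 0.024) and Ahsa1 passed only without 19 h replicate 2 or 3 (up to 0.016). In the endoplasmic reticulum list 1 of 33 genes rose (3.03%, near the 3.26% of all genes), the segregase Vcp (0.44 ± 0.05), and 1 fell, Edem1, which marks misfolded glycoproteins for degradation. Edem1 was 10.55, 10.45, 10.07 and 10.44 at 19 h, 13.15, 12.62, 13.32 and 12.06 at 3 h, and 10.55 to 10.92 in corn oil rats (-2.41 ± 0.28, adjusted p = 0.0021).

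Enzymes of fatty acid oxidation were moderately higher at 19 h, with 11 of 35 genes higher, 1 lower and a median of 0.29. The 11 rises were 31.4% of the list and the 1 fall 2.86%, against 3.26% and 1.92% of all genes. Hadhb and Hadha, the subunits of the mitochondrial trifunctional protein, were 11.42 ± 0.07 and 11.14 ± 0.13 at 19 h and 10.50 ± 0.06 and 10.44 ± 0.15 at 3 h. The Hadhb difference of 0.93 ± 0.05 had an adjusted p of 8.0e-05. Eci1, which shifts double bonds of unsaturated fatty acids, was 11.40, 12.02, 11.73 and 11.44 at 19 h and 10.16, 9.87, 10.01 and 9.90 at 3 h, with 11.64 to 12.22 in corn oil rats (1.66 ± 0.15, 3.16-fold, adjusted p = 0.00081). Phyh, which starts the breakdown of branched fatty acids in peroxisomes, and Acadl, the dehydrogenase of long chains, rose by 0.73 ± 0.08 and 0.62 ± 0.06. Hacl1, which takes the next step after Phyh, went the other way: it was 8.08, 8.27, 8.42 and 8.29 at 19 h, 10.72, 11.25, 11.20 and 11.32 at 3 h, and 9.62 to 10.16 in corn oil rats. The fall of 2.86 on the log2 scale, 7.25-fold, had an adjusted p of 8.0e-05. The list held 7 rises with scan day as a block and 7 to 11 with 1 array left out (7 without 3 h replicate 1). Hadha did not pass without 19 h replicate 4 or 3 h replicate 1 or 2 (adjusted p up to 0.013). In the oxidative phosphorylation list 4 of 46 genes rose by 0.32 to 0.40, among them the ATP synthase subunit Atp5f1d (10.86 ± 0.06 at 19 h and 10.45 ± 0.06 at 3 h). The 4 were 8.70% of the list, against 3.26% of all genes.

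**Figure D3:**
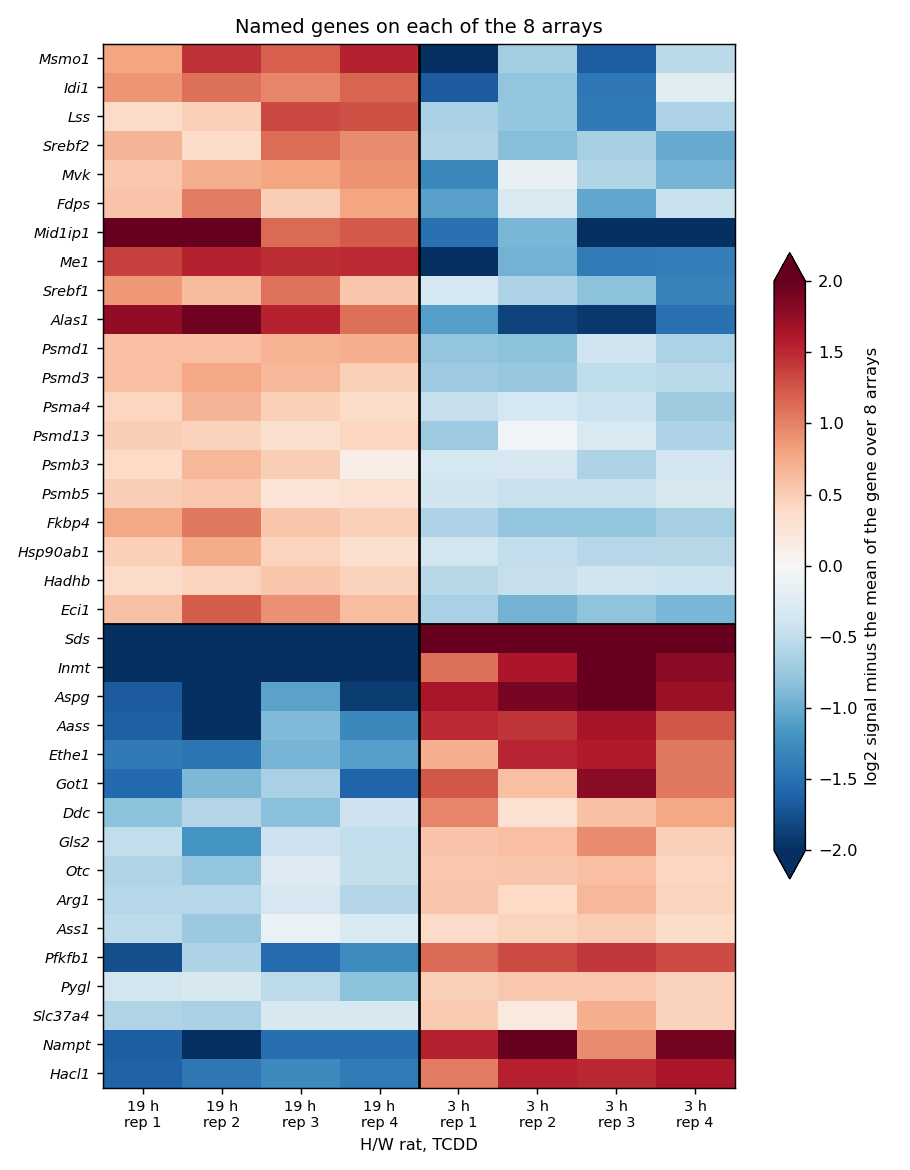
Log2 signal of 36 named genes on each of the 8 H/W arrays, 19 h rats left and 3 h rats right, minus the mean of each gene over the 8 arrays (colour range -2 to 2). The upper 20 genes are higher in every 19 h rat than in every 3 h rat and the lower 16 are lower.

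The largest fall, and the largest difference in either direction, was that of serine dehydratase (Sds), which turns serine into pyruvate. Its signal was 3.22, 2.83, 4.29 and 3.24 in the 19 h rats and 11.71, 11.56, 12.36 and 10.88 in the 3 h rats, with 3.31, 4.40, 4.48 and 5.52 in corn oil rats. High values were thus seen in the 3 h rats alone among the 3 H/W groups. The difference was -8.23 ± 0.40 (adjusted p = 8.0e-05). The 19 h mean of 3.40 lay under the median of every array, so the ratio (300.5-fold) depends on the low end of the scale.

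Sds was part of a wider fall in amino acid catabolism and the urea cycle. Of 45 measured genes 17 fell (37.8%, against 1.92% of all genes) and none rose, and the median was -0.65. Differences were negative for 40 of the 45, against 6991 of all 10411 genes. Inmt, which methylates indoleamines and other amines, was 3.36, 3.39, 3.39 and 3.42 at 19 h, 6.51, 7.02, 8.99 and 7.21 at 3 h, and 6.90 to 9.31 in corn oil rats. Unlike Sds, it was at the low end of the scale in the 19 h TCDD rats and well above it in the corn oil rats (-4.04 ± 0.49, adjusted p = 0.0026, and 0.010 without 19 h replicate 4). Aspg, an asparaginase outside the list, was also lower at 19 h than in both other groups: 4.35, 3.06, 4.94 and 4.12 at 19 h, 7.65, 7.91, 8.34 and 7.75 at 3 h, and 6.88 to 8.36 in corn oil rats (-3.79 ± 0.38, adjusted p = 0.0013). Aass, the first enzyme of lysine breakdown, was 8.68, 8.29, 9.43 and 9.02 at 19 h, 11.80, 11.75, 11.97 and 11.56 at 3 h, and 10.28 to 10.58 in corn oil rats (-2.92 ± 0.23, adjusted p = 0.00059).

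Got1, the cytosolic aspartate aminotransferase, was 10.11, 10.76, 11.02 and 10.06 at 19 h and 12.90, 12.26, 13.47 and 12.71 at 3 h, and the corn oil rats at 9.92 to 10.40 were near the 19 h rats (-2.35 ± 0.31, adjusted p = 0.0039). The call ended without 19 h replicate 1 or 4 or 3 h replicate 1 or 4 (adjusted p up to 0.014). Ethe1, a mitochondrial enzyme of sulfide oxidation outside the list, was 7.91 ± 0.25 at 19 h and 10.36 ± 0.41 at 3 h, with 9.21 ± 0.50 in corn oil rats. Ddc, which makes biogenic amines, and the liver glutaminase Gls2 fell by 1.32 and 1.30. Enzymes of the urea cycle, the route of nitrogen disposal, also fell: arginase (Arg1) was 12.93, 12.93, 13.16 and 12.92 at 19 h and 14.05, 13.90, 14.16 and 13.95 at 3 h (-1.03 ± 0.08, adjusted p = 0.00045). Ornithine transcarbamylase (Otc) was 11.14, 10.95, 11.49 and 11.27 at 19 h and 12.29, 12.29, 12.34 and 12.17 at 3 h (-1.06 ± 0.11, adjusted p = 0.0014). Argininosuccinate synthase (Ass1) was 13.36 ± 0.26 at 19 h and 14.21 ± 0.06 at 3 h. The corn oil means lay between those of the 2 TCDD groups for all 3, at 13.49, 11.74 and 13.92. Tyrosine aminotransferase (Tat), which glucocorticoids induce, differed by -0.01 (adjusted p = 0.97). The list held 10 falls with scan day as a block and 9 to 16 with 1 array left out. The lowest counts were 9 without 19 h replicate 4 or 3 h replicate 4, 10 without 19 h replicate 1 and 11 without 3 h replicate 1 or 3. Gls2 passed only without 19 h replicate 2, Ass1 only without 19 h replicate 2 or 3, and Ddc failed without 3 h replicate 4 (adjusted p up to 0.018).

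Genes of glucose handling fell in 7 of 24 cases (29.2%, against 1.92% of all genes), with a median of -0.24 against -0.03. The 1 that rose was 4.17% of the list, near the 3.26% of all genes. Pfkfb1, the liver enzyme that makes and breaks the glycolytic signal fructose 2,6-bisphosphate, was 6.81, 7.94, 7.03 and 7.31 at 19 h and 9.69, 9.87, 9.98 and 9.86 at 3 h, with 7.69 to 8.55 in corn oil rats (-2.58 ± 0.23, 5.98-fold lower at 19 h, adjusted p = 0.00083). Glycogen phosphorylase (Pygl) was 10.53, 10.56, 10.37 and 10.06 at 19 h and 11.37, 11.44, 11.43 and 11.35 at 3 h (-1.02 ± 0.11, adjusted p = 0.0015). The 3 h rats were tightly grouped above the 19 h rats in both. The glucose 6-phosphate carrier Slc37a4, pyruvate kinase (Pklr), the glucokinase regulator Gckr and fructose bisphosphatase (Fbp1) fell by 0.95, 0.93, 0.50 and 0.49. Fbp1 and Gckr passed with any array left out, but Slc37a4 passed without 19 h replicate 3, 3 h replicate 2 or 3 h replicate 3 alone and Pklr without 19 h replicate 2, 3 or 4 alone (adjusted p up to 0.016). Lactate dehydrogenase (Ldha) rose by 0.39 ± 0.05. Pck1, the classical gluconeogenic enzyme, differed by -0.45 (adjusted p = 0.35).

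In the list of glucocorticoid and fasting genes 3 of 23 fell (13.0%, against 1.92% of all genes) and none rose (median -0.50). Metallothionein (Mt2A), which binds zinc and copper, was 11.01, 10.80, 10.59 and 10.39 at 19 h, 11.94, 12.83, 13.10 and 12.61 at 3 h, and 7.49 to 10.30 in corn oil rats (-1.92 ± 0.26, adjusted p = 0.0039). The 3 h rats were highest and the corn oil rats lowest. Hsd11b1, which regenerates active glucocorticoid, was 12.27 ± 0.25 at 19 h and 13.44 ± 0.18 at 3 h (adjusted p = 0.0024), and Lpin1, described above, was the third. Mt2A lost its call without 19 h replicate 2, 3 or 4 or 3 h replicate 2 or 4 (adjusted p up to 0.014). Large differences without a call were those of the fasting-induced genes Angptl4 (means of 7.72 at 19 h and 10.72 at 3 h, adjusted p = 0.065), Igfbp1 (-3.57, adjusted p = 0.19) and Pdk4 (-2.11, adjusted p = 0.015).

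Nampt, the rate-limiting enzyme of NAD salvage and an output gene of the circadian clock, was 6.15, 5.78, 6.30 and 6.30 at 19 h, 9.33, 10.08, 8.74 and 9.72 at 3 h, and 6.97 to 8.42 in corn oil rats. The 3 h rats were highest and the 19 h TCDD rats lowest (-3.34 ± 0.28, 10.1-fold lower at 19 h, adjusted p = 0.00075). Of the 16 measured genes on the clock list, 1 rose, the enzyme Alas1, and 1 fell, the enzyme Nampt. Each is 6.25% of the list, against 3.26% of all genes higher and 1.92% lower. No other gene on the clock list, Per2, Bmal1 and Nr1d2 among them, was called. Per2, a repressor of the clock, was 9.52, 9.20, 8.02 and 8.18 at 19 h and 8.93, 8.29, 7.94 and 8.44 at 3 h, with 2.95 to 7.71 in corn oil rats. The 2 TCDD groups overlapped, and both lay above the corn oil rats. Bmal1, which drives the clock, was 6.32 ± 0.21 at 19 h and 5.62 ± 0.35 at 3 h (adjusted p = 0.057), and the repressor Nr1d2 was 4.43 ± 0.07 and 5.87 ± 1.02 (adjusted p = 0.10). The other clock genes differed by -0.28 to 0.18, apart from Bhlhe40 (1.73, adjusted p = 0.097).

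Among the remaining large falls, the 4E-binding protein Eif4ebp3, a brake on translation, was 6.27 ± 0.46 at 19 h and 8.69 ± 0.56 at 3 h. The ectonucleotidase Enpp3 was 5.78, 5.63, 7.32 and 6.98 at 19 h and 8.55, 8.63, 8.99 and 9.01 at 3 h, with corn oil rats at 8.51 to 9.39, overlapping the 3 h rats (-2.37 ± 0.40, adjusted p = 0.0097). Nrep, a neuronal regeneration-related protein, was 6.68 ± 0.53 at 19 h, 8.94 ± 0.48 at 3 h and 9.95 ± 0.56 in corn oil rats. Dock9, which activates the GTPase Cdc42, was 6.64 ± 0.68 at 19 h, 8.95 ± 0.47 at 3 h and 6.28 ± 0.40 in corn oil rats. These 4 calls rested on the full set of arrays: Dock9 lost it with any array left out, Enpp3 with any but 19 h replicate 3, Nrep with any but 19 h replicate 3 or 3 h replicate 2, and Eif4ebp3 with 19 h replicate 2, 3 or 4 or 3 h replicate 2 or 3 (adjusted p up to 0.032).

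**Figure D4:**
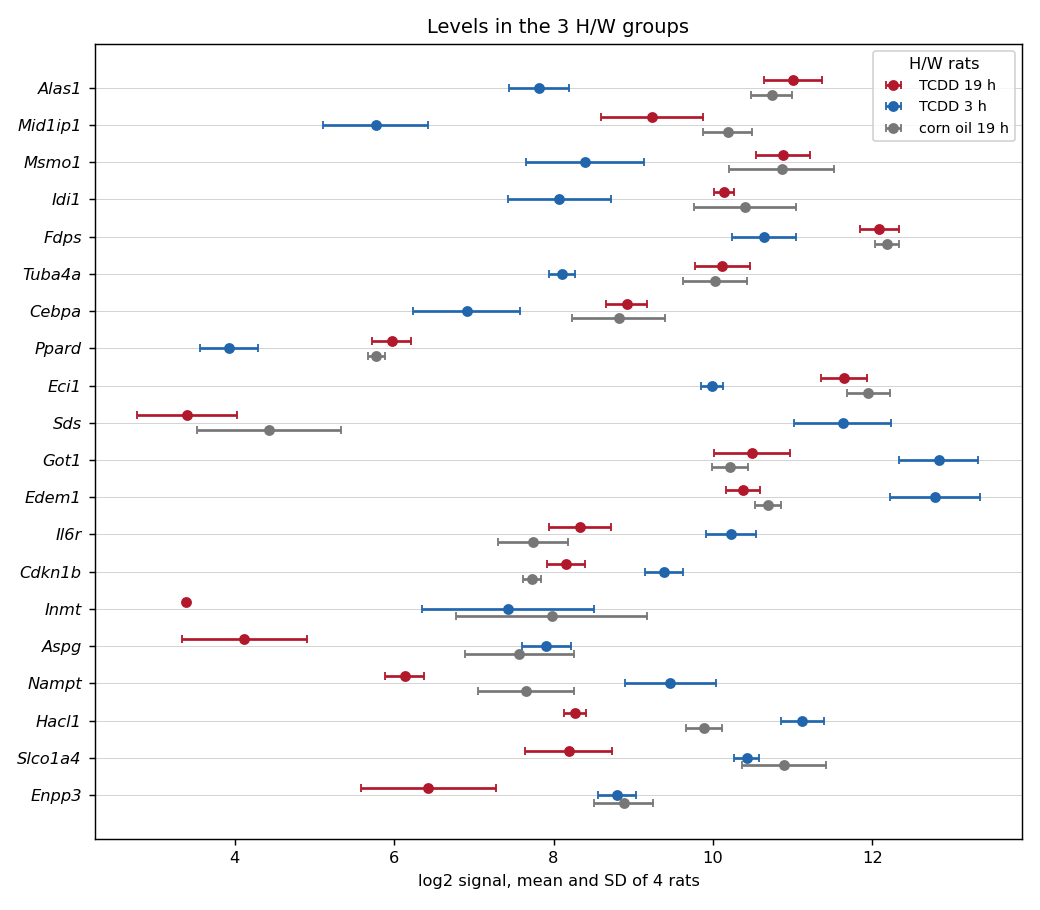
Mean log2 signal with SD of 4 H/W rats at 19 h after TCDD, 3 h after TCDD and 19 h after corn oil for 20 of the named genes. In the rows from Alas1 to Cdkn1b the 3 h group stands apart from the other 2, and in the rows from Inmt to Enpp3 the 19 h TCDD group has the lowest mean.

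Transporters and P450 enzymes of families 2 to 4 changed in both directions. The uptake carrier Slco1a4 was 8.61, 7.66, 7.78 and 8.71 at 19 h, 10.38, 10.22, 10.59 and 10.50 at 3 h, and 10.12 to 11.26 in corn oil rats (-2.23 ± 0.26, 4.70-fold lower at 19 h, adjusted p = 0.0022). Slco1a1, its close relative, was 9.58 ± 0.11 at 19 h, 10.25 ± 0.09 at 3 h and 10.48 ± 0.10 in corn oil rats. Both fell below the 3 h and the corn oil level. The phosphate and urate carriers Slc17a3 and Slc17a1 went up: Slc17a3 was 10.97, 10.74, 10.70 and 10.51 at 19 h, 9.87, 9.67, 9.72 and 9.65 at 3 h, and 9.13 to 9.52 in corn oil rats (adjusted p = 0.0012), and Slc17a1 rose by 0.85 ± 0.10. The bile acid and transport list held 3 rises and 3 falls among 27 genes (11.1% each, against 3.26% and 1.92% of all genes). In the P450 list 2 of 26 rose, Cyp2a1 (9.70 ± 0.25 at 19 h and 8.57 ± 0.13 at 3 h) and Cyp2c7 (14.57 ± 0.05 and 13.96 ± 0.21), and 2 fell, Cyp2j3 (9.31 ± 0.17 and 10.45 ± 0.24) and Cyp2c23 (12.09 ± 0.19 and 12.89 ± 0.10). The 2 rises and the 2 falls were 7.69% of the list each, against 3.26% and 1.92% of all genes. Cyp2c7 passed only without 3 h replicate 2, and Cyp2c23 failed without 19 h replicate 4 or 3 h replicate 1 or 4 (adjusted p up to 0.028). None of the 15 conjugating enzymes of the UGT and SULT families was called by limma, against 5.18% of all genes. Their differences were -0.70 to 0.59. An unadjusted p under 0.05 was reached by 4 of them and by 2422 of all 10411 genes.

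Cyp7a1, the rate-limiting enzyme of bile acid synthesis, showed no call but an unusual distribution. It was 3.00, 3.57 and 3.55 in 3 of the 19 h rats and 10.38 in replicate 3, 2.42, 2.45, 2.43 and 2.46 in the 3 h rats, and 10.37, 10.44, 10.21 and 9.49 in corn oil rats. All 3 h rats lay at the low end of the scale, and 1 of the 19 h rats stood at the corn oil level (2.68 ± 1.59, adjusted p = 0.36). On the list of 9 genes also measured by RT-PCR, whose members came from these samples, Cyp1a1 and Selenbp1 rose (22.2%, against 3.26% of all genes). Choline kinase (Chka) was 11.12, 10.79, 10.01 and 10.63 at 19 h, 9.30, 9.60, 9.29 and 9.35 at 3 h and 7.52 to 8.00 in corn oil rats, just short of the threshold (1.25 ± 0.22, adjusted p = 0.012). It passed when 19 h replicate 3 was left out. The immediate early gene Klf10 was 4.28 ± 0.30 at 19 h and 6.67 ± 1.02 at 3 h (adjusted p = 0.020), and Elovl6, Pik3r1 and Crip2 differed by -0.97, 0.72 and -0.21 (adjusted p = 0.16, 0.30 and 0.20). None of the 41 immediate early genes, which respond to handling and other stimuli within the hour, was called by limma, against 5.18% of all genes. An unadjusted p under 0.05 was reached by 8 of them and by 2422 of all 10411 genes. Both means lay under the lowest array median for 19 of the 41, Fos among them, where a change could hardly be seen.

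Antioxidant genes rose in 4 of 22 cases: Me1, the glutathione synthesis enzyme Gclc (9.84 ± 0.43 at 19 h and 8.60 ± 0.13 at 3 h), glutathione reductase Gsr (7.80 ± 0.08 and 6.66 ± 0.24) and the transferase Gsta4 (11.63 ± 0.14 and 10.88 ± 0.12), while Taldo1 fell by 0.46. The 4 rises were 18.2% of the list and the 1 fall 4.55%, against 3.26% and 1.92% of all genes. Among transcription factors, Prox1, a regulator of hepatocyte identity, was 9.02 ± 0.26 at 19 h and 10.32 ± 0.25 at 3 h, the xenobiotic receptor Nr1i2 was 8.29 ± 0.17 and 9.13 ± 0.16, and the bile acid regulator Nr5a2 was 4.75 ± 0.14 and 6.02 ± 0.11. These 3 fell, against rises of Ppard, Cebpa and Nr1h3 among the 28 measured. Falls and rises were 10.7% of the list each, against 1.92% and 3.26% of all genes. The growth factor Igf1 fell (12.61 ± 0.16 at 19 h and 13.40 ± 0.23 at 3 h), and its binding protein Igfbp4 rose (11.34, 11.67, 11.44 and 11.60 at 19 h against 9.68, 9.49, 9.75 and 9.58 at 3 h, 1.89 ± 0.09, 3.70-fold, adjusted p = 7.0e-05), as did the kinase Akt1. That makes 2 rises (8.33%, against 3.26% of all genes) and 1 fall (4.17%, against 1.92%) among 24 genes of the insulin and IGF axis. Igf1 and Akt1 lost their calls with any array left out (adjusted p up to 0.026). Gclc passed only without 19 h replicate 2 (up to 0.028). Taldo1 failed without 19 h replicate 1 or 4 or 3 h replicate 2, 3 or 4, Nr1i2 without 19 h replicate 1 or 2 or 3 h replicate 4, and Prox1 without 3 h replicate 4 (up to 0.016).

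The receptor of interleukin 6, Il6r, was 8.51, 8.11, 8.79 and 7.93 at 19 h, 10.16, 10.04, 10.68 and 10.02 at 3 h and 7.38 to 8.36 in corn oil rats (-1.89 ± 0.23, adjusted p = 0.0025). The 3 h rats were above both other groups. Of 29 acute phase and complement genes 4 fell (13.8%, against 1.92% of all genes) and 1 rose (3.45%, near the 3.26% of all genes). The falls included the pentraxin Apcs by 0.67 and fibrinogen alpha (Fga) by 0.41, and the rise was retinol-binding protein Rbp4 (0.37 ± 0.05). The kinetochore gene Zwint was the only one of 31 cell cycle genes called, a share near that of all genes, and 20 of the 31 had both means under the lowest array median (Zwint was 9.12 ± 0.22 at 19 h and 7.89 ± 0.14 at 3 h). Of 16 DNA damage and arrest genes 1 was called (6.25%, near the 5.18% of all genes), the cyclin-dependent kinase inhibitor Cdkn1b. It was 8.15 ± 0.24 at 19 h, 9.39 ± 0.24 at 3 h and 7.73 ± 0.11 in corn oil rats. Nucleolar genes fell in 3 of 27 cases, among them Nop58 of the box C/D particles (6.98 ± 0.33 at 19 h and 8.57 ± 0.23 at 3 h) and the helicase Ddx21 (7.18 ± 0.18 and 8.39 ± 0.26). The 3 were 11.1% of the list, against 1.92% of all genes. Of 32 ribosomal protein genes 2 rose (6.25%, against 3.26% of all genes). Rbp4 passed only without 3 h replicate 2 or 4 and Cdkn1b failed without 19 h replicate 3 or 4 (adjusted p up to 0.015).

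In L-E rats the same contrast called 418 genes (4.01%), and fewer with most arrays left out: 172, 185, 198 and 235 without 3 h replicates 1 to 4, 276 without 19 h replicate 2 and 213 without 19 h replicate 4. The strains share no arrays, but their 3 h arrays were scanned on the same day and their 19 h arrays partly so. Of the 539 genes called in H/W rats, 519 (96.3%) had the same sign in L-E rats, against 48.9% of all genes, and 165 were called in the same direction in L-E rats, 30.6% of the H/W list and 39.5% of the L-E list. Pearson's r of the differences across the 10411 genes was 0.75, given as a description since genes are not independent. The differences in H/W and L-E rats were -8.23 and -7.79 for Sds, 7.40 and 7.84 for Cyp1b1, and -4.04 and -4.63 for Inmt. The amino acid list held 17 falls in H/W and 18 in L-E rats.

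Other groups had larger values in H/W rats, although the difference between strains passed for none of their members. The cholesterol list had a median of 1.23 and 8 calls in H/W rats, and a median of 0.32 and 0 calls in L-E rats. In limma 6 members had an unadjusted p under 0.05 in L-E rats, as had 2534 of all 10411 genes. The lowest adjusted p of the interaction among the 19 members was 0.035. The proteasome list had a median of 0.47 and 19 rises in H/W rats, and a median of 0.29 and 2 rises in L-E rats. An unadjusted p under 0.05 was reached by 30 members in H/W and 21 in L-E rats, against 2422 and 2534 of all 10411 genes. Of the 33 differences, 31 had the same sign in both strains (lowest adjusted p of the interaction 0.14). The difference of Alas1 was 3.19 in H/W and 1.26 in L-E rats, that of Me1 2.94 and 1.01, and that of Mid1ip1 3.46 and 1.47, with adjusted p of the interaction of 0.079, 0.11 and 0.23. The difference of Nampt was -3.34 in H/W and -1.16 in L-E rats (limma, adjusted p = 0.045 for the interaction). Slc17a1 and Slc17a3, which rose in H/W rats, differed by -0.05 and -0.06 in L-E rats (limma, adjusted p = 0.032 and 0.053 for the interaction).

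The interaction of time and strain was called for 6 genes (0.0576%). In 3 of them the H/W rats changed and the L-E rats did not pass. Abcc9, a subunit of ATP-sensitive potassium channels, was 4.46, 4.35, 4.04 and 4.54 at 19 h and 6.41, 5.69, 5.67 and 6.23 at 3 h in H/W rats, with means of 4.11 and 4.16 in L-E rats. Its other probe sets, at dimmer mean signals of 1.94 and 3.65, differed by -0.04 and -0.37 in H/W rats. Fam89a fell by 0.93 in H/W rats and differed by 0.31 in L-E rats. Ywhab, a 14-3-3 adaptor protein, rose by 0.31 in H/W rats and differed by -0.08 in L-E rats. In the other 3 the H/W difference did not pass and L-E rats changed: Bambi, a decoy receptor of the TGF-beta family, was at 3.12 and 3.04 in H/W rats and at 5.12 and 3.05 in L-E rats (19 h and 3 h means), Arfgap1 differed by -0.05 in H/W and rose by 0.57 in L-E rats, and Baat, which conjugates bile acids, differed by 0.16 in H/W and fell by 0.33 in L-E rats. These calls were fragile. With 1 of the 16 arrays left out, 4 to 6 genes were called without H/W 3 h replicate 2, L-E 19 h replicate 1 or 2 or L-E 3 h replicate 1, and 0 to 2 without 1 of the other 12, among them every H/W 19 h array. With scan day as a block none was called (1817 genes had an unadjusted interaction p under 0.05).

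**Figure D5:**
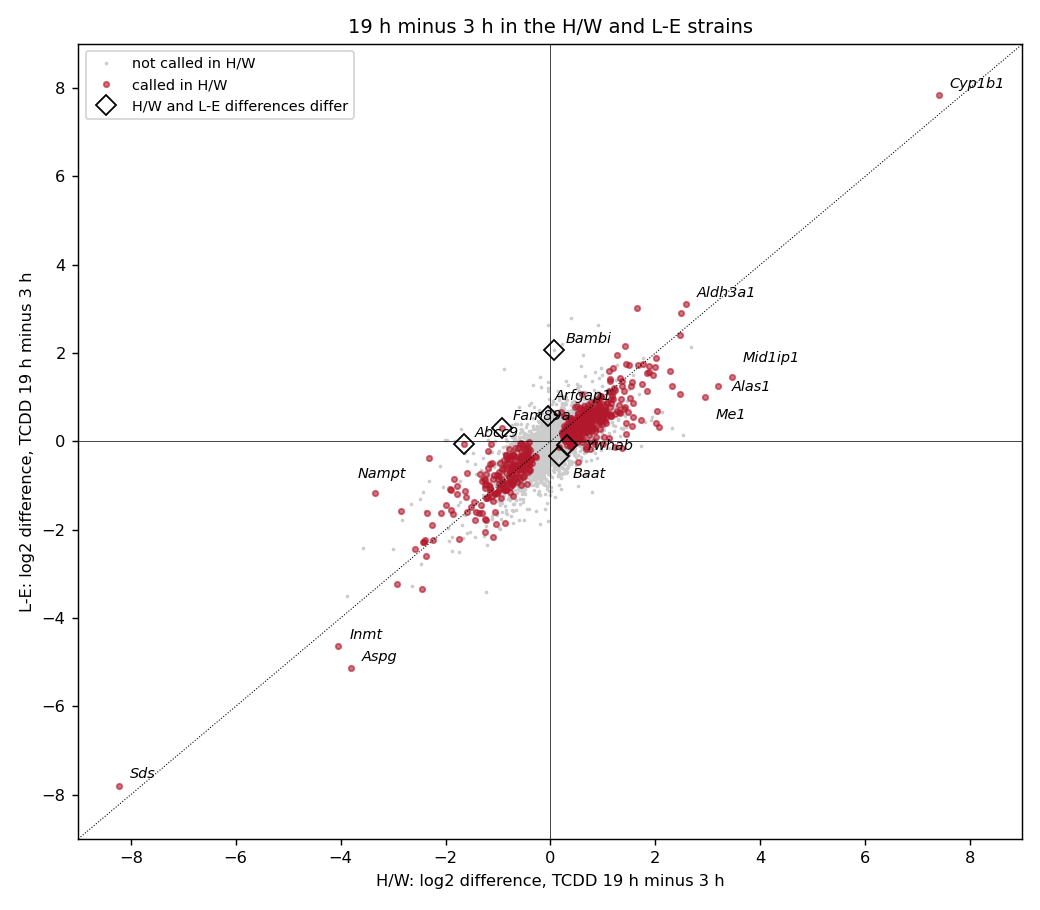
Log2 difference of 19 h minus 3 h after TCDD in H/W rats (x axis) and in L-E rats (y axis) for 10411 genes, with genes called in H/W rats as filled points and the 6 genes of the interaction as open diamonds. Of the 539 filled points, 519 have the same sign in both strains. Alas1, Me1, Mid1ip1 and Nampt, named by their H/W difference, lie off the dotted line of equal difference toward larger H/W values, as do 395 of the 539.

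The livers carried the markers of hepatocytes, with albumin (Alb) at 16.5 at both times, and 1 of the 11 hepatocyte markers was called, Fga. That 1 fall was 9.09% of the list, against 1.92% of all genes. None of the measured markers of bile duct, immune, stellate and endothelial, red blood, pancreas and fat cells was called by limma. At an unadjusted p under 0.05 there were 1 of the bile duct, 0 of the immune, 4 of the stellate and endothelial, 1 of the red blood, 0 of the pancreas and 0 of the fat markers. Of all 10411 genes, 2422 reached it. Both means lay under the lowest array median for 5 of 6 bile duct, 1 of 11 immune, 4 of 11 stellate and endothelial, 2 of 4 red blood, 9 of 11 pancreas and 4 of 4 fat markers, so the bile duct, pancreas and fat lists say little about those cells. Their summed signal on the log2 scale overlapped between 19 h and 3 h for each list: 5.89 to 6.05 and 5.94 to 6.29 for 6 bile duct markers, 11.1 to 11.5 and 11.3 to 11.9 for 11 immune markers, 10.8 to 10.9 and 10.7 to 10.9 for 11 stellate and endothelial markers, 11.9 to 12.4 and 11.5 to 12.1 for 4 red blood cell markers, and 4.74 to 4.96 and 4.62 to 5.03 for 4 fat markers. The 11 pancreas markers were 8.50 to 9.36 at 19 h and 9.17 to 9.62 at 3 h. The 3' minus 5' signal of the beta-actin control, a sign of RNA quality, was 1.87 to 2.08 at 19 h and 1.95 to 2.12 at 3 h. The control itself was higher at 19 h, 12.4 against 11.9 at its 3' end. Differences of the hybridisation controls BioB, BioC, BioD and Cre ran from -0.07 (BioB-M) to 0.39 (BioDn-3). BioDn-3 was 11.06 to 11.19 at 19 h and 10.57 to 10.90 at 3 h. The middle Gapdh control differed by 0.42, and the beta-actin controls by 0.45 (middle) to 0.61 (5' end). Small called differences, such as those of Rbp4 (0.37) and Ldha (0.39), were no larger than that of Gapdh. Those of Cyp1a1 (0.54), Cyp1a2 (0.59) and Hspd1 (0.60), among others, were no larger than that of the 5' beta-actin control. The part of these controls in the results was not tested.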

How the data were processed

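Log2 signals per probe set were taken from the table deposited by the authors. Per the labels, the authors used R 2.3.1 with affy (1.10.0) and GCRMA (2.4.1), while the methods of the study describe RMA with an Entrez probe map, which needs probe-level data and was not run. The scanner files deposited with the arrays gave scan days and no signal. Groups follow the sample labels, which name 1 rat per array, and 0 columns were unused. Depth has no counterpart on an array, and the 4 rats per group limit the precision.

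Of 15923 probe sets, 57 controls were left out. Of the other 15866, 12783 have 1 gene symbol, 312 several and 2771 none, and the brightest probe set on average across the 8 arrays stood for a gene (10411 genes, 1868 with several probe sets, 0 symbols changed through the Entrez ID). Where a gene has several probe sets the others are covered by the alternative that averages them. R 4.3.3 with limma 3.58.1 (lmFit, eBayes) compared the 4 arrays of 19 h with the 4 of 3 h, and p-values were adjusted over all genes by the Benjamini-Hochberg method at 0.01, the study's threshold. The same fit was made for L-E rats and for TCDD against corn oil at 19 h in H/W rats, and the interaction of time and strain was fitted over 16 arrays. The scripts were tested on simulated data.

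Genes named are the 15 largest rises and 15 largest falls among called genes without overlap, and up to 6 called members of each of 27 pathway lists (752 of 915 symbols of these and 7 marker lists were measured), with AHR, clock and RT-PCR genes also where not called. Arg1, Otc, Ass1, Psmb8, Psmb9, Ldha, Pck1, Angptl4, Igfbp1, Pdk4, Scd, Acaca, Fasn, Fos, Ppox, Rb1, Tat, Bhlhe40 and the genes of the interaction were named after their values were seen. The members and lists were chosen with earlier results of these data known. Promoter sequences are RefSeq's, and those of genes not in that table were not analysed. Alternatives were averaging or testing all probe sets, leaving out the lowest 40% of genes, median centring, quantile normalization, array weights, limma trend, a log2 difference of at least 1, 1 fit over 16 arrays, scan day or replicate number as a block and leaving out each array. Counts of list members under these were added after the data were seen.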

Additional observations from a re-analysis of the deposited data

Results flagged for a closer look

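In 250 groups of 4 arrays (the 120 named genes at 19 h and at 3 h, and 10 genes in corn oil rats), 16 held an array whose gap to the nearest other, as a share of the range, was above Dixon's critical value for 4 samples. Chance gives such an array in about 1 group in 20. At 19 h the array set apart was that of replicate 3 for Cyp7a1 (10.4, others 3.00 to 3.57), Arg1 (13.2, others 12.9) and Elovl6 (6.64, others 5.66 to 5.81). It was that of replicate 2 for Gls2 (9.77, others 10.5), Cyp2c23 (11.8, others 12.2) and Rbp4 (15.05, others 14.97 to 14.98), that of replicate 1 for Eif4ebp3 (5.59, others 6.46 to 6.54) and that of replicate 4 for Arfgap1 (7.04, others 7.28 to 7.30). At 3 h it was that of replicate 4 for Nqo1 (10.98, others 10.2 to 10.3) and Axin2 (4.45, others 4.83 to 4.89), replicate 3 for Psmb3 (9.34, others 9.58 to 9.62), replicate 1 for Pklr (10.2, others 9.99 to 10.00) and replicate 2 for Pik3r1 (3.06, others 2.37 to 2.42). In corn oil rats it was replicate 3 for Cyp1a1 (8.60, others 2.38 to 2.89) and Cyp1a2 (14.29, others 13.94 to 13.96) and replicate 2 for Exoc3 (5.97, others 6.85 to 7.02). The raised Cyp1a1 and Cyp1a2 of the same corn oil rat stand beside 3.20 to 3.42 in the other 3 corn oil rats and 4.47 in this one for Aldh3a1.

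The difference of 19 h minus 3 h itself differed between H/W and L-E rats for 6 genes. H/W minus L-E was -1.99 for Bambi, -1.60 for Abcc9, -1.24 for Fam89a, -0.62 for Arfgap1, 0.49 for Baat and 0.39 for Ywhab (adjusted p of the interaction 0.0060 to 0.0089). The Bambi value depends on the low end of the scale.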

How the results depend on the processing

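The main counts were 539 genes, 339 higher and 200 lower. They stayed within 1.5 times under the mean of probe sets, every probe set, the low-gene filter, quantile normalization, median centring, limma trend and 1 fit over 16 arrays (420 to 763 genes), and with array weights apart from the falls (317). Median centring called 312 rises and 137 falls, and quantile normalization 234 and 186. A log2 difference of at least 1 left 157 genes (83 and 74), scan day as a random block 269 (176 and 93, correlation within a day 0.171) and the replicate block 112 (70 and 42, of which 101 were among the 539). Leaving out 1 array gave 326 to 388 genes, 203 to 246 higher and 110 to 158 lower. Replicate numbers pair nothing in the labels: deviations of same-numbered arrays correlated at 0.033 to 0.10 over 1598 genes, and 3 of 4 arrays of 19 h correlated best with their own number.

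Members of the lists that passed moved as follows. AHR-inducible genes (6 higher) were 3 with the replicate block and 4 to 6 without 1 array. Cholesterol genes (8 higher) were 4 with quantile normalization, 1 with scan day as a block, 1 with the replicate block and 1 to 6 without 1 array. Proteasome genes (19 higher) were 2 at a log2 difference of at least 1, 12 with scan day, 6 with the replicate block and 12 to 16 without 1 array. Fatty acid oxidation genes (11 higher) were 1, 7, 3 and 7 to 11 in the same order, and amino acid genes (17 lower) 11, 10, 4 and 9 to 16. Scan day holds 1 time only, so it cannot be told apart from time in any of these.

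For L-E rats (418 genes) the replicate block gave 51 and leaving out 1 array 172 to 341. The interaction (6 genes) gave 2 with the low-gene filter, 2 with the replicate block, 0 with scan day as a block and 0 to 6 without 1 array. TCDD against corn oil at 19 h (45 genes) gave 73 with the low-gene filter, 28 with median centring, 18 with the replicate block, 16 with scan day as a block and 16 to 46 without 1 array. The cause of these shifts was not tested. Of 103 named genes called, 64 passed without any 1 array, 70 with scan day and 26 with the replicate block, and none changed direction. Genes without a call changed sign in 3 fits: Arfgap1 with the mean of probe sets (0.14) and without 19 h replicate 4 (0.0091, with a range of -0.076 to 0.0091 over the arrays left out), and Tiparp with array weights (0.014).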
